A study of Danio rerio with 9 samples.

Results

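Slit proteins are large secreted ligands and Robo proteins are their single-pass membrane receptors. The pathway is best known for repelling growing axons from the midline of the nervous system, in flies and in vertebrates alike. Outside neurons it acts on vessels and the heart: Robo4 is found mainly on endothelial cells, where it has been linked in mice to the stability of vessels and to the restraint of VEGF signaling, and Slit3 and Robo1 take part in heart formation in mice. The 8 zebrafish symbols *robo1*, *robo2*, *robo3*, *robo4*, *slit1a*, *slit1b*, *slit2* and *slit3* were looked up by name in the RNA-seq table of adult ventricles. The name table held 8 matching Ensembl identifiers, and 7 of them had a row among the 16575 genes of the count table. It lists both zebrafish *slit1* genes simply as *slit1*. One of these (ENSDARG00000044954) had a row and the other (ENSDARG00000099446) had none; which one is *slit1a* was not resolved, so the row is called *slit1* here. The members were chosen by symbol, and the family itself was selected with values of mutant against control in these libraries already known, those of *robo4* among them. The differences between genotypes below therefore describe its members. Their p-values show where each gene stands in the fit over all genes and are not independent evidence.

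The mutant fish were *vegfc*(hy-/-);*vegfd*(-/-) double mutants, homozygous for a hypomorphic allele of *vegfc*, which keeps part of its function, and for a null allele of *vegfd*. Both alleles are constitutive, so every tissue of the fish carried them. Controls were vegfc(+/+):vegfd(+/+). The study describes mutants and controls in a lyve1b:DsRed reporter background. Whether the sequenced fish carried the reporter is not given in the sources used here. RNA came from fresh ventricles at 5 months of age, with 4 mutant libraries (replicates 6 to 9) and 5 control libraries (replicates 1 to 5), and whether a library held 1 or several ventricles is not given in the sources used here. P-values weigh the difference between genotypes against the spread between these libraries, which may not be the spread between single fish.

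Totals ran from 27320575 to 33496006 counts in mutant libraries and from 23302636 to 33407859 in control libraries. Control replicate 2 stood apart: it had the lowest total, and 684 genes without a count, against 69 to 320 in the other libraries. Of the targeted genes, *vegfd* was at 0.368 ± 0.214 CPM (SD, n = 4) in mutants and 2.60 ± 1.25 CPM (SD, n = 5) in controls, a fitted log2 difference of -2.82 ± 0.51 (SE) that passed at an adjusted p-value of 0.0195 in edgeR (0.0562 without mutant replicate 6 and 0.0611 without mutant replicate 7). *vegfc* was at 3.80 ± 1.86 CPM (SD, n = 4) in mutants and 2.99 ± 1.71 CPM (SD, n = 5) in controls, so that its mRNA level does not check the label. CPM is the usual measure of a gene's share of a library's counts, here with library sizes adjusted by edgeR's TMM factors. As a check of the tissue, the 7 cardiomyocyte rows, with the light chain gene *myl7* among them, summed to between 51857 and 55653 CPM in mutants and between 63590 and 72897 CPM in controls; no row was found under *vmhc* or *ttn.2*. Because the tissue was sequenced in bulk, these counts alone cannot tell fewer cells of a type from less RNA per cell in any result that follows. Imaging in the study found no lymphatic vessels on the ventricles of double mutants. It also found larger ventricles and larger cardiomyocytes than in controls. The part of these changes in the values below was not tested.

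The comparison asked which Slit and Robo mRNAs differ between ventricles of the 2 genotypes. *robo4* was lower in mutants, at 0.335 of its control level (95% interval 0.197 to 0.568), and it was the 1 member of 7 to pass the threshold of 0.05 on adjusted p-values (quasi-likelihood test of edgeR). Over all genes, 3.34% passed it, 2.13% higher and 1.21% lower in mutants. The other members differed by less: the fitted log2 fold changes of *robo3* and *slit2* were below 0, and those of *slit1*, *slit3*, *robo1* and *robo2* were above 0. At an unadjusted p-value under 0.05 there were 4 members (*robo4*, *robo3*, *slit2* and *slit3*), 3 of them lower and 1 higher in mutants, where the share over all genes was 20.9%, with 9.87% lower and 11% higher. The median log2 fold change of the 7 rows was 0.35, against -0.01 over all genes. That median is the value of *robo2*, the member with the fewest counts. Groups did not overlap in CPM for 1 member, *robo4*, against 10.5% of all genes, 6.07% higher and 4.46% lower in mutants.

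**Figure D1:**
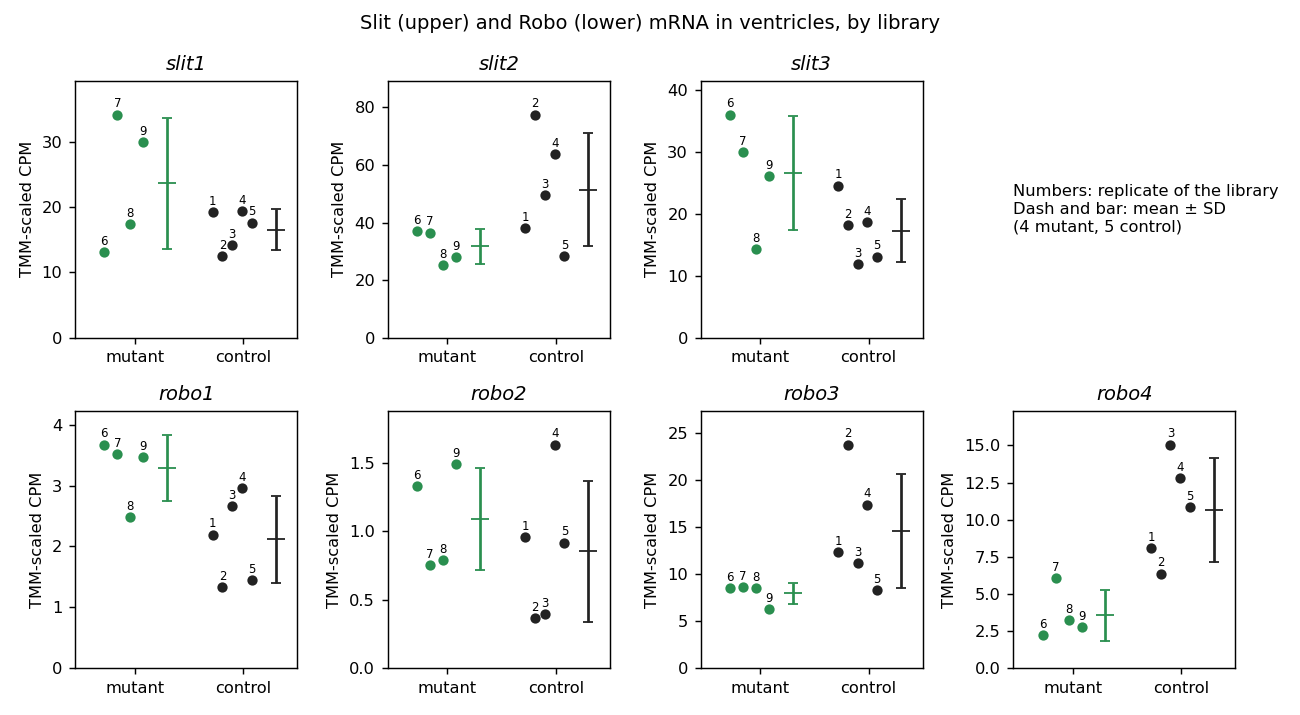
TMM-scaled CPM (vertical axes, each starting at 0) of the 3 Slit rows, upper, and the 4 Robo rows, lower, in 4 mutant libraries (green, left) and 5 control libraries (black, right). Points are libraries, numbers are replicates, and dashes with bars give the mean ± SD; *robo4* is the panel in which the genotypes do not overlap, with 6.03 CPM in the highest mutant library and 6.36 CPM in the lowest control library.

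Among the ligands, *slit2* (ENSDARG00000004246) encodes the Slit that is most often studied in axon guidance and angiogenesis. Mutant replicates 6 to 9 held 37.1, 36.5, 25.2 and 28.0 CPM, and control replicates 1 to 5 held 38.0, 77.5, 49.6, 63.6 and 28.3 CPM. All mutant libraries lay within a narrow band at the low end of the controls, 2 of them below every control, while control replicate 5 lay among the mutants. The means were 31.7 ± 5.99 CPM (SD, n = 4) in mutants and 51.4 ± 19.7 CPM (SD, n = 5) in controls. The log2 fold change of -0.70 ± 0.28 (SE) had a 95% interval from -1.31 to -0.08 and an adjusted p-value of 0.185 in edgeR. In the GRCz12tu assembly *slit2* lies on the chromosome of *vegfc*, with 210 protein-coding genes between them. No other member lies on the chromosome of either targeted gene there.

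*slit3* (ENSDARG00000034268), whose mouse ortholog is needed in the heart and diaphragm, stood on the other side. It was at 36.0, 29.9, 14.3 and 26.0 CPM in mutant replicates 6 to 9, against 24.5, 18.2, 11.9, 18.6 and 13.1 CPM in control replicates 1 to 5. Of the 4 mutant libraries, 3 lay above every control, and mutant replicate 8 fell into the lower part of the control range. Its fitted log2 fold change was 0.62 ± 0.28 (SE), with a 95% interval from 0.00 to 1.24 and an adjusted p-value of 0.236 in edgeR. *slit1*, a ligand known mostly from the brain, had the widest spread among mutants of the 3 Slit rows: 13.1, 34.2, 17.4 and 30.0 CPM in mutant replicates 6 to 9, against 19.2, 12.5, 14.2, 19.4 and 17.7 CPM in control replicates 1 to 5. Replicates 7 and 9 lay above all controls and the others within them. Its log2 fold change was 0.51 ± 0.27 (SE), with a 95% interval from -0.09 to 1.12 and an adjusted p-value of 0.312 in edgeR.

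The balance between ligands can be read inside each library, where any scaling cancels out. These ratios were chosen after the values were seen, and are given without a test. Counts of *slit2* per count of *slit3* were 1.03, 1.22, 1.77 and 1.08 in mutant replicates 6 to 9, against 1.55, 4.26, 4.18, 3.42 and 2.17 in control replicates 1 to 5. All controls but replicate 1 exceeded all mutants. Because transcript lengths were not used, the ratio compares libraries and does not say which ligand had more mRNA. The ligands summed together differed little, with 56.9 to 101 CPM in mutants and 59.0 to 108 CPM in controls, and *slit2* made up 39.3 ± 5.29% (SD, n = 4) of the Slit counts of mutants, against 58.9 ± 11.1% (SD, n = 5) of those of controls.

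**Figure D2:**
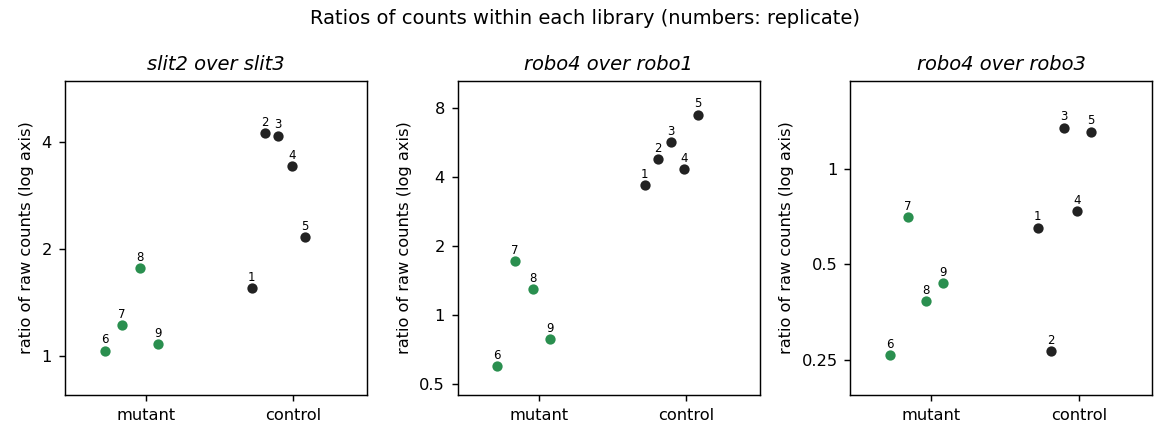
Ratios of raw counts within a library (log axes) for *slit2* over *slit3*, *robo4* over *robo1* and *robo4* over *robo3*, in mutant (green, left) and control (black, right) libraries, numbered by replicate. *robo4* over *robo1* separates the genotypes, at 0.600 to 1.71 in mutants and 3.68 to 7.47 in controls, whereas the other ratios overlap. All were chosen after the values were seen.

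Among the receptors, *robo4* (ENSDARG00000009387) is the endothelial member of the family. It was at 2.21, 6.03, 3.24 and 2.73 CPM in mutant replicates 6 to 9, against 8.07, 6.36, 15.1, 12.8 and 10.8 CPM in control replicates 1 to 5. No mutant library reached the lowest control, but mutant replicate 7 came close to control replicate 2, and in raw counts (192 and 139, before scaling for depth) these libraries were in the opposite order. The means were 3.55 ± 1.70 CPM (SD, n = 4) in mutants and 10.6 ± 3.51 CPM (SD, n = 5) in controls. Its fitted log2 fold change was -1.58 ± 0.34 (SE; edgeR, adjusted p = 0.0380), rank 390 of 16575 genes by p-value. The direction was the same in each of the 15 refits, but the call was not stable. The adjusted p-value was 0.0946 without mutant replicate 6, 0.0887 without mutant replicate 8 and 0.0988 without mutant replicate 9. It was 0.0790, 0.0734 and 0.0658 without control replicates 3, 4 and 5, one at a time. Without control replicate 2 it was 0.0306.

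*robo3* (ENSDARG00000005645), the receptor that lets commissural axons cross the midline in the mouse, is the direct neighbour of *robo4* in GRCz12tu, with 0 protein-coding genes between them. Mutant replicates 6 to 9 held 8.51, 8.57, 8.46 and 6.26 CPM, and control replicates 1 to 5 held 12.4, 23.8, 11.2, 17.4 and 8.29 CPM. Of the controls, only replicate 5 reached down into the mutant range, and control replicate 2 was the highest. The means were 7.95 ± 1.13 CPM (SD, n = 4) in mutants and 14.6 ± 6.09 CPM (SD, n = 5) in controls. Its fitted log2 fold change was -0.87 ± 0.28 (SE), with a 95% interval from -1.50 to -0.24 and an adjusted p-value of 0.121 in edgeR; DESeq2 gave 0.0402. Although both neighbours had lower means in mutants, their order among controls differed: control replicate 2 was the highest in *robo3* and the lowest in *robo4*, with 0.267 counts of *robo4* per count of *robo3*, against 0.653 to 1.35 in the other controls. In mutants that ratio was 0.259 to 0.703. Without control replicate 2, the fitted log2 values were -0.63 for *robo3* and -0.50 for *slit2*.

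*robo1* (ENSDARG00000026784), a widely expressed Slit receptor, was at 3.68, 3.52, 2.49 and 3.47 CPM in mutant replicates 6 to 9, against 2.19, 1.33, 2.66, 2.96 and 1.45 CPM in control replicates 1 to 5. Again 3 of 4 mutant libraries lay above every control and mutant replicate 8 did not. Its fitted log2 fold change was 0.63 ± 0.29 (SE), with a 95% interval from -0.01 to 1.27 and an adjusted p-value of 0.250 in edgeR. *robo2* (ENSDARG00000014891), required for the path of retinal axons in zebrafish, was the least abundant in reads, with 22 to 47 counts in mutants and 8 to 52 counts in controls. Its 95% interval, from -0.76 to 1.46 on the log2 scale, covers changes in either direction (adjusted p = 0.746 in edgeR). Counts of *robo4* per count of *robo1* were 0.600, 1.71, 1.30 and 0.789 in mutant replicates 6 to 9, against 3.68, 4.79, 5.66, 4.33 and 7.47 in control replicates 1 to 5. Every mutant ratio was below every control ratio. This ratio too was chosen after the values were seen. Because *robo1* had a fitted value above 0, the wider gap than in *robo4* alone adds no evidence. The 4 receptors summed to 14.0 to 18.9 CPM in mutants and 21.5 to 34.8 CPM in controls, without overlap. *robo3* and *robo4* held most of that sum in each library, while *robo1* and *robo2* had fitted values above 0. The sum is thus no fall of every receptor. Over all genes taken singly, 10.5% had no overlap, with 4.46% lower in mutants, and no such share was computed for sums of genes. Because the sum holds *robo4*, whose values were known when the family was selected, its separation adds no evidence.

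**Figure D3:**
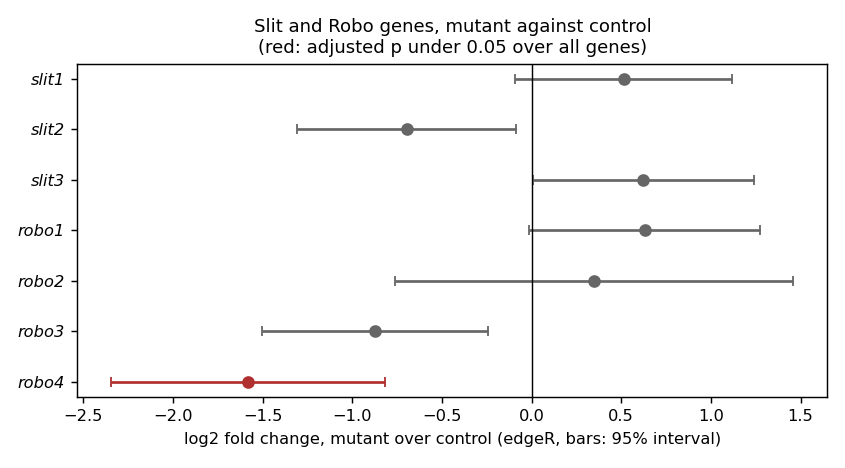
Fitted log2 fold change of mutant over control (horizontal axis, edgeR) for the 7 rows, with 95% intervals as bars. *robo4* (red) is at -1.58 and has an adjusted p-value under 0.05; *robo3* and *slit2* are at -0.87 and -0.70, and *robo2* has the widest interval.

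*robo4* was next set against genes of blood endothelium, because Robo4 is known mainly from endothelial cells. Which cells held its mRNA here was not tested. In a list of 32 such rows, 1 rose (*vwf*, von Willebrand factor, log2 fold change 1.23, adjusted p = 0.0173 in edgeR; 0.0505 without mutant replicate 9) and 0 fell. Of the list, 15 rows had a fitted value above 0 and 17 below 0, with a median of -0.07, and DESeq2 and the likelihood ratio test called 2 lower and limma-voom 1. The 3 rows with an unadjusted p-value under 0.05 in the lower direction were *aplnrb*, an apelin receptor, and the transcription factor genes *sox18* and *sox7*. They are named after their values were seen. Of the list, 2 rows were higher at that threshold, while 9.87% of all genes were lower and 11% higher. At an adjusted p-value under 0.05, 3.1% of the list and 3.34% of all genes passed in edgeR. *aplnrb* was at 3.71 to 9.84 CPM in mutants and 13.5 to 49.5 CPM in controls, without overlap (log2 fold change -1.76 ± 0.42 SE, BH-adjusted p = 0.0502 in edgeR). *sox18* and *sox7* had fitted log2 values of -0.95 and -0.60, adjusted p-values of 0.111 and 0.147 in edgeR, and overlapping groups. No row was found under *pecam1*, *emcn* or *arhgef15*. The summed level was 2004 to 2389 CPM in mutants and 1519 to 2621 CPM in controls. *kdrl*, the Vegf receptor used as a blood vessel reporter, was at 317 ± 55.4 CPM (SD, n = 4) in mutants and 274 ± 46.7 CPM (SD, n = 5) in controls. *cdh5*, the cadherin of endothelial junctions, was at 216 ± 32.0 CPM (SD, n = 4) in mutants and 187 ± 22.6 CPM (SD, n = 5) in controls. *kdrl* and *cdh5* are named although neither was called. Both had a fitted log2 value of 0.21, whereas 17 of the 32 rows were below 0. Per library, log2(CPM + 0.5) of *robo4* minus the mean of the list was -3.44, -2.40, -3.14 and -3.27 in mutant replicates 6 to 9, against -1.98, -2.70, -0.87, -1.24 and -1.40 in control replicates 1 to 5. The mean difference between genotypes was -1.42, close to the -1.48 of *robo4* itself on that scale, while the mean of the list differed by -0.05. Control replicate 2, with the highest level of the list, fell among the mutants on this measure, so the groups overlapped; without it the difference was -1.69.

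**Figure D4:**
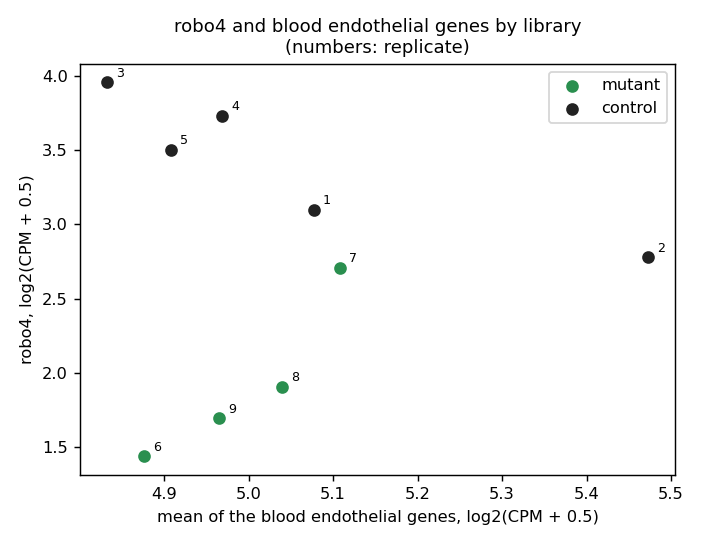
Level of *robo4* (vertical axis) against the mean of 32 blood endothelial genes (horizontal axis), both as log2(CPM + 0.5), for 4 mutant (green) and 5 control (black) libraries numbered by replicate. At list means between 4.83 and 5.11 the mutant points lie below the control points, and control replicate 2 stands apart at 5.47.

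Markers of some other cells moved as well, and their part in the *robo4* result was not tested. In edgeR 33.3% of lymphatic endothelial rows were called, 6.25% of those of epicardium and fibroblasts and 27.3% of mural rows. Over all genes the share was 3.34%. Of 5 leukocyte rows and 7 cardiomyocyte rows, 0 were called by edgeR. Of the cardiomyocyte rows, 6 had a fitted value below 0 and 1 above, with a median of -0.34. At an unadjusted p-value under 0.05 in edgeR, 4 of them were lower and 1 higher, where 9.87% and 11% of all genes were. DESeq2 called 2 lower and 1 higher, and limma-voom 1 lower and 1 higher. The cardiomyocyte sum given above was lower in each mutant library than in each control library. Of 9 lymphatic endothelial rows, *flt4*, the receptor of Vegfc, and *stab2*, a scavenger receptor, fell (log2 fold changes -2.98 and -2.96), while *mrc1*, the mannose receptor, rose (3.65). Mutant libraries held 4 to 21 counts of *flt4* and 3 to 22 of *stab2*, against 57 to 134 and 59 to 168 in controls. *flt4* is not lymphatic alone: the study took its mRNA in heart sections as a sign of blood vessels, in controls and mutants. The call of *flt4* was lost without mutant replicate 6 or 7 and that of *stab2* without mutant replicate 8, with adjusted p-values of up to 0.0572. Of the 9 rows, 6 had a fitted value below 0, among them *lyve1b*, a hyaluronan receptor gene (log2 fold change -2.27 ± 0.88 SE, BH-adjusted p = 0.176 in edgeR). The sum of the list was nevertheless higher in mutants, at 150 to 180 CPM, against 87.4 to 134 CPM in controls. *stab1*, a scavenger receptor gene, made up much of it, at 68.2 to 103 CPM in mutants and 24.1 to 60.2 CPM in controls, without overlap (log2 fold change 1.02 ± 0.26 SE, BH-adjusted p = 0.0669 in edgeR). With a lyve1b reporter, the study saw no lymphatic vessels on the ventricles of double mutants. The sum of the list is therefore not read as an amount of lymphatic vessel. *lyve1b* and *stab1* are named after their values were seen, and no row was found under *pdpn*. Of 16 rows of epicardium and fibroblasts, 1 fell: *tbx18*, an epicardial transcription factor, at 3.89 ± 1.76 CPM (SD, n = 4) in mutants and 11.6 ± 4.16 CPM (SD, n = 5) in controls (adjusted p = 0.0494 in edgeR, lost in 8 of the 9 refits without 1 library, at up to 0.126). The sum of that list was 755 to 959 CPM in mutants and 662 to 1247 CPM in controls. Among 11 rows of mural cells and bulbus smooth muscle, *myh11* (ENSDARG00000009782) and *rgs5*, genes of smooth muscle and pericytes, fell (log2 fold changes -1.38 and -1.69) and *tagln* (ENSDARG00000045408), an actin-binding gene of smooth muscle, rose (1.41). These calls were lost in 6, 7 and 9 of the 9 refits without 1 library for *myh11*, *rgs5* and *tagln*. In the list 9 of 11 rows had a fitted value below 0, with a median of -1.02. At an unadjusted p-value under 0.05 there were 7 lower and 1 higher in mutants, where 9.87% and 11% of all genes were, and DESeq2 and the likelihood ratio test each called 4 lower and 1 higher. The names *myh11* and *tagln* are each shared by 2 identifiers, whose division of reads is uncertain. This list summed to 192 to 329 CPM in mutants and 246 to 410 CPM in controls. Neuronal and glial genes, of interest for a family of axon guidance, were scarce: 6 of 14 symbols gave no row, the other rows summed to 6.03 to 16.3 CPM in mutants and 5.81 to 17.3 CPM in controls, and 0 passed the threshold by edgeR, DESeq2 or limma-voom, with 0 at an unadjusted p-value under 0.05.

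The genes whose pattern over the 9 libraries was most like that of *robo4* were sought by the root mean square difference of log2(CPM + 0.5), each gene centred on its own mean, among 13873 other genes with a mean of at least 1 CPM. The 5 nearest were *tnikb* (0.33), *bcl11ba* (0.35), *mettl13* (0.36), si:dkey-238k10.5 (0.36) and si:ch211-214b16.4 (0.38). They had between 0.265 and 1.59 CPM on average in mutants and between 1.96 and 5.51 CPM in controls, so that their counts were low. Their fitted log2 fold changes ran from -2.86 for *bcl11ba* to -1.20 for *tnikb*, against -1.58 for *robo4*. Likeness was computed over the libraries of both genotypes, so lower values in mutants follow from how these genes were chosen. Their fold changes and p-values are thus no separate evidence. *tnikb* and *mettl13* did not pass the threshold (adjusted p = 0.0858 and 0.143 in edgeR). The rest did, though not all of them in every refit. In the order by likeness *robo3* took place 2107 and *slit2* place 2132, and the nearest blood endothelial gene, *sox7*, place 1040. With a pseudocount of 1 in place of 0.5, 3 of the 5 stayed among the nearest 5.

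Other genes of the pathway were read from a list of 50 symbols that act with Slit or Robo. No row was found for 6 of them (*srgap1b*, *srgap2*, *arhgap39*, *pak3*, *gpc1a* and *nell3*), and the others gave 45 rows. In the same fit 1 rose and 3 fell, 8.89% of the list, where 3.34% of all genes were called. At an unadjusted p-value under 0.05 there were 5 higher and 10 lower in mutants, where the shares over all genes were 11% higher and 9.87% lower. The median log2 fold change was -0.01, equal to that of all genes to 2 decimals. *dag1*, dystroglycan, which binds Slit in the mouse, fell to 34.8 ± 4.04 CPM (SD, n = 4) in mutants, against 57.1 ± 5.60 CPM (SD, n = 5) in controls (log2 fold change -0.72 ± 0.13 SE, BH-adjusted p = 0.0193 in edgeR). Mutant libraries held 30.3 to 39.4 CPM and control libraries 49.0 to 64.2 CPM, with no overlap; the adjusted p-value was 0.0555 without mutant replicate 8 and 0.0559 without mutant replicate 9. *pak1*, a kinase that takes signals from Rac and Cdc42 to the cytoskeleton, rose to 12.3 ± 3.90 CPM (SD, n = 4) in mutants, against 4.74 ± 1.42 CPM (SD, n = 5) in controls (log2 fold change 1.38 ± 0.28 SE, BH-adjusted p = 0.0296 in edgeR; 0.0519 to 0.0781 without mutant replicate 7, 8 or 9 or control replicate 3 or 5).

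The other genes called in this list act on actin. *cap2*, a cyclase-associated protein, was at 33.8 to 43.0 CPM in mutants and 49.99 to 67.4 CPM in controls (log2 fold change -0.59 ± 0.13 SE, BH-adjusted p = 0.0425 in edgeR), a call lost in each of the 9 refits without 1 library (0.0552 to 0.109). *enah*, the ortholog of fly Enabled, which binds Robo there, was at 83.6, 71.1, 69.0 and 63.3 CPM in mutant replicates 6 to 9, against 82.4, 230.5, 143, 133 and 152 CPM in control replicates 1 to 5. It is named although its p-value was only the fourth of the list. Mutant replicate 6 and control replicate 1 overlapped (log2 fold change -1.05 ± 0.25 SE, BH-adjusted p = 0.0494 in edgeR), and 8 of the 9 refits without 1 library lost the call, at up to 0.127.

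Further partners of the receptors gave values short of the threshold, and were picked out after their values were seen. Nearest to it was 1 of the 2 identifiers named *pxn* (ENSDARG00000060766, log2 fold change -0.95 ± 0.24 SE, BH-adjusted p = 0.0609 in edgeR). Its other identifier went the other way (ENSDARG00000088590, 0.80 ± 0.31 SE, BH-adjusted p = 0.171 in edgeR). One of the 2 identifiers named *nell2* (ENSDARG00000062797), whose product is a ligand of Robo3 in the mouse, had 68, 65, 33 and 39 counts in mutant replicates 6 to 9, against 8, 0, 0, 14 and 4 counts in control replicates 1 to 5. The genotypes did not overlap, and the log2 fold change was 3.35 ± 0.87 (SE; edgeR, adjusted p = 0.0681). The other (ENSDARG00000090690) overlapped between genotypes, at 29 to 93 counts in mutants and 16 to 158 counts in controls, and how reads divide between them is uncertain. *flrt3*, a transmembrane partner of Robo1 in the mouse, was at 0.827 to 1.75 CPM in mutants and 1.90 to 6.995 CPM in controls (log2 fold change -1.59 ± 0.42 SE, BH-adjusted p = 0.0718 in edgeR). *srgap1*, a GTPase-activating protein that binds the tail of Robo, was at 2.80 to 5.34 CPM in mutants and 5.28 to 9.92 CPM in controls (log2 fold change -0.89 ± 0.25 SE, BH-adjusted p = 0.0833 in edgeR). *unc5b*, a netrin receptor that binds Robo4 in the mouse, was at 0.612 to 1.22 CPM in mutants and 0.229 to 1.36 CPM in controls, with a 95% interval from -1.38 to 0.88 on the log2 scale.

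**Figure D5:**
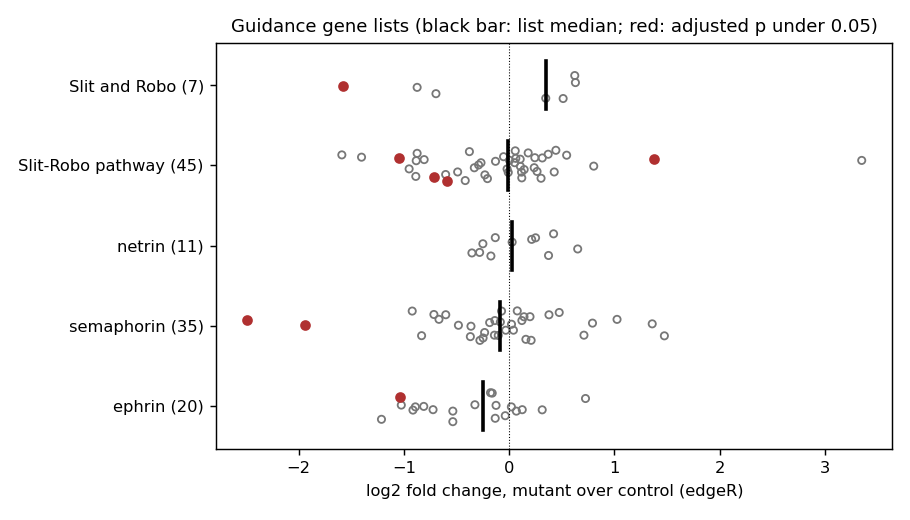
Log2 fold change of mutant over control (horizontal axis, edgeR) for each gene of the Slit and Robo family and of 4 other guidance lists, with the number of rows in brackets. Red points have an adjusted p-value under 0.05 and black bars are list medians, from -0.25 for ephrins to 0.35 for Slit and Robo. The median for Slit and Robo is the value of *robo2*, the member with the fewest counts.

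Families of guidance genes most like Slit and Robo were counted in the same way. Over all genes, 3.34% were called by edgeR and 20.9% had an unadjusted p-value under 0.05. No row was found for 11 of 22 netrin symbols, 13 of 48 semaphorin symbols and 10 of 31 ephrin symbols. Netrins and their receptors had 0 of 11 rows called by edgeR, DESeq2 or limma-voom, with 2 at an unadjusted p-value under 0.05. Semaphorins, plexins and neuropilins had 0 higher and 2 lower of 35: *plxna4*, a semaphorin receptor, at 1.65 to 2.81 CPM in mutants and 3.58 to 12.5 CPM in controls (log2 fold change -1.94 ± 0.34 SE, BH-adjusted p = 0.0193 in edgeR), and *plxnb2b*, at 0.140 to 0.974 CPM in mutants and 1.75 to 4.64 CPM in controls (log2 fold change -2.49 ± 0.51 SE, BH-adjusted p = 0.0332 in edgeR). The call of *plxna4* was lost in 3 of the 9 refits without 1 library, those without mutant replicate 6, 7 or 9 (up to 0.0576), and with limma-voom (0.0505), and that of *plxnb2b* in 6 (up to 0.0815). The likelihood ratio test and DESeq2 called 2 of these rows higher as well. Ephrins and Eph receptors had 1 lower of 20, *efnb1*, an ephrin ligand, at 2.07 to 3.02 CPM in mutants and 3.02 to 5.85 CPM in controls (log2 fold change -1.04 ± 0.24 SE, BH-adjusted p = 0.0482 in edgeR, lost in 8 of the 9 refits, at up to 0.120). The shares called were 14.3% of the 7 Slit and Robo rows, 0% for netrins, 5.71% for semaphorins and 5% for ephrins. Over all genes the share was 3.34%, and differences between these shares were not tested. The 14.3% is 1 gene, *robo4*, whose values were known when the family was selected, so it cannot be ranked against the others. Its call was lost in 6 of the 9 refits without 1 library.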

How the data were processed

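Each column of the deposited table holds 1 library of ventricle RNA. Per the labels and the methods of the study, the authors prepared stranded mRNA libraries, trimmed paired reads, aligned them to GRCz11 with STAR 2.5.2a and ran featureCounts 1.5.0, with strand taken into account, on Ensembl genes at a mapping quality of 20 or more. The deposited values are raw counts, without normalization, of genes with a mean of 10 or more per library. Genes under that limit are not analysed here.

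Symbols came from a table of gene names, which matched 15812 of 16575 identifiers (95.4%), ignoring case and, where a symbol was absent, its final a or b. Adjacency of genes was read from RefSeq for GRCz12tu, without its coordinates. Genome and protein sequences and transcript lengths were not used here, so levels of different genes are not compared.

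Counts were TMM-scaled in edgeR 4.0.16 (R 4.3.3), without a covariate. Genotypes were compared with the quasi-likelihood F test (legacy form, two-sided) and Benjamini-Hochberg adjustment over all genes, at a threshold of 0.05. Standard errors are the size of the log2 fold change over the square root of F, and 95% intervals use the test's degrees of freedom. The procedure was tested on simulated data. Members and lists were chosen with earlier results of these data known. Named genes were all members, *vegfc* and *vegfd*, the 5 genes most like *robo4*, and up to 3 called genes of each list with the smallest p-values; exceptions are stated. Alternatives were the likelihood ratio test, DESeq2 1.42.0, limma-voom (limma 3.58.1) with quality weights, RLE scaling, library size alone, genes averaging at least 50 counts, a stricter threshold of 0.01, and fits that left out 1 library at a time. The labels name no batch.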

Additional observations from a re-analysis of the deposited data

Results flagged for a closer look

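Of 60 groups of libraries examined for a single value far from the rest, 2 held one, where chance gives about 3. For *robo3*, mutant replicate 9 had the lowest level, 6.26 CPM, against 8.46 to 8.57 CPM in the other mutants. For *efnb1*, control replicate 2 had the lowest level, 3.02 CPM, against 5.15 to 5.85 CPM in the other controls.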

How the results depend on the processing

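No member changed direction in 104 recomputations. The number of Slit and Robo genes called was 1. DESeq2 gave 2 (*robo4* and *robo3*), and fits without 1 library gave 0 to 1. A threshold of 0.01 gave 0, because the lowest adjusted p-value of a member, that of *robo4*, was 0.0380 in edgeR. The 45 pathway genes, with 4 called, gave 9 with the likelihood ratio test, 10 with DESeq2, 7 with limma-voom and 0 to 4 without 1 library (0 without mutant replicate 8). The 66 netrin, semaphorin and ephrin genes, with 3 called, gave 5 with the likelihood ratio test, 5 with DESeq2, 2 with limma-voom and 0 to 3 without 1 library (0 without mutant replicate 7 or 9). Over all genes these tests called 8.19%, 10.1% and 3.96%, and fits without 1 library 1.18% to 2.90%. *vegfd* ranged from -3.23 to -2.49 (log2 fold change) without 1 library, and its adjusted p-value was 0.0562 without mutant replicate 6 and 0.0611 without mutant replicate 7. *robo4* ranged from -1.96 to -1.41 without 1 library and, relative to blood endothelial genes, from -1.69 to -1.23. Of the 21 other named genes, none reversed in 314 recomputations, and calls were lost in 91. Beyond what is stated, the causes were not tested. *robo2* averaged under 50 counts, and the filter on such genes removed it. Levels of different members per length were not computed, because no lengths were used. No paired analysis was made, because the labels give no pairing of libraries. Counts were lowest for *robo2* among the members, at 8 to 52 per library; counting error and spread between libraries were not separated.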
